A study of Mus musculus with 8 samples.

Results

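The course of embryoid bodies under doxycycline (Dox) was followed from day 2 to day 4 of differentiation. The comparison rests on the 4 arrays titled as Dox-on at day 4 (2 arrays) and at day 2 (2 arrays), out of 8 arrays in the series, and covers all gene probes on the log2 scale. The embryoid bodies were grown from mouse embryonic stem cells that the labels call iTbx6 T-GFP, cultured in a serum-free differentiation medium to which no growth factor was added, and were broken up and allowed to reaggregate at day 2. Dox is a small molecule that switches on inducible transgenes, and the time at which it was added is not given in the labels. The 4 other arrays hold embryoid bodies of the same line without Dox at day 2 and day 4, 2 arrays each. No cells lacking the transgene received Dox among these samples, so an effect of Dox itself and an effect of the transgene cannot be told apart. The reaggregation fell between the 2 days, so its effect and that of time cannot be told apart either. Nothing in the labels says whether the 2 arrays of a group came from separate cultures. All p-values thus rest on the spread between arrays of a group, and this spread may be purely technical.

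Tbx6 and T (Brachyury) are T-box transcription factors of the primitive streak, the transient structure of the gastrulating embryo through which epiblast cells pass to form mesoderm and endoderm. In mouse embryonic stem cells, the way into the streak starts from naive pluripotency, passes through an epiblast-like state, and is driven by Nodal, Wnt, BMP and FGF signals. Cells that pass through the streak switch on T, Mixl1 and Eomes, then Mesp1, the factor of the earliest cardiovascular mesoderm, and they commonly exchange epithelial for mesenchymal adhesion molecules.

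Each array held 23473 gene probes, of which 21670 were above the level of the blank spots on at least 2 arrays and were tested. The median gene intensity before background subtraction was 73.9 on both day-2 arrays with Dox and 80.9 and 82.6 on both day-4 arrays with Dox, and the blank spots averaged 52.3 to 54.1 on the 4 day-2 arrays and 56.9 to 60.9 on the 4 day-4 arrays. The part of this rise in the results was not tested. Across probes the 2 arrays with Dox correlated at 0.9945 at day 2 and at 0.9941 at day 4, and arrays of different days with Dox at 0.9755 to 0.9774. RNA was measured in bulk, so fewer cells of a type and less RNA per cell cannot be told apart. With 2 arrays per group, precision is limited by the number of arrays.

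Between day 2 and day 4 with Dox, 2087 probes rose and 2022 fell (limma, adjusted p under 0.05), together 4109 probes or 19% of those tested. Of all probes tested, 9.63% rose and 9.33% fell, and each list count with Dox is to be read beside these shares. Without Dox 20.2% rose and 17.9% fell. In the test of the difference between the courses, 11.1% were higher with Dox and 11% lower. Rises of at least 2-fold were called for 676 probes (3.12%) and at least 2-fold falls for 776 (3.58%), and changes of at least 4-fold for 114 probes upwards (0.526%) and 175 downwards (0.808%). The median log2 change of all probes was 0.00, and the values of the 2 days did not overlap for 12255 probes (56.6%). The count of calls was 2556 and 2420 when replicate 1 or 2 of day 2 was left out, and 2703 and 2612 when replicate 1 or 2 of day 4 was left out. When the scanner's local background values were used in a normexp correction, 3 probes were called, and 782 had an unadjusted p under 0.05. Under that correction 55 of the 186 named genes called here also had the opposite sign.

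**Figure D1:**
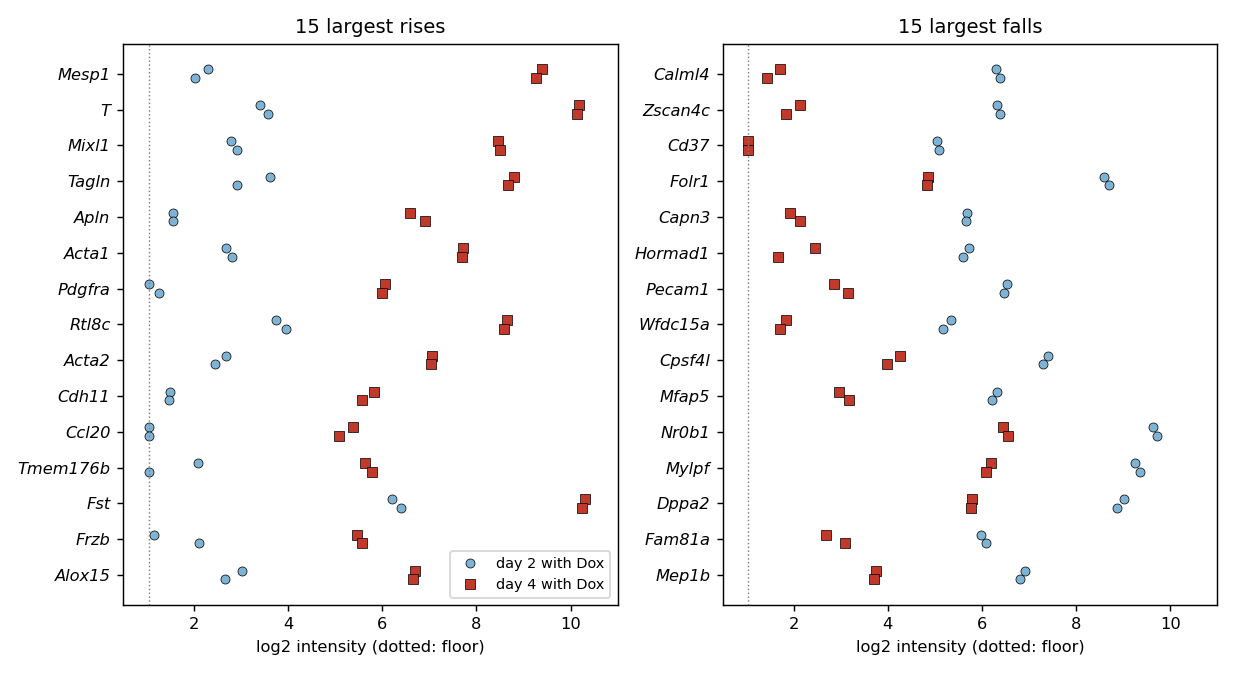
Log2 intensity on each array with Dox at day 2 (blue circles) and day 4 (red squares) for the 15 named genes with the largest rises and the 15 with the largest falls, whose brighter group had a mean log2 intensity of at least 5. Only called genes whose 2 days did not overlap could be chosen, so the gap between the days is part of the choice. Mesp1 has the widest gap, from a mean of 2.16 to 9.33.

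The Tbx6 probe, for the gene named in the cell line, was examined first. Its log2 intensity was 5.21 and 5.48 at day 2 and 6.10 and 6.23 at day 4 with Dox. The 2 days did not overlap, and the rise was 0.82 ± 0.12 on the log2 scale (SE, with 2 arrays in each group; limma, adjusted p = 0.00451), a 1.76-fold higher intensity. Without Dox the probe read 5.59 and 5.49 at day 2 and 5.50 and 5.58 at day 4, a change of 0.00 ± 0.12. The course with Dox differed from the course without Dox by 0.82 (limma adjusted p = 0.0167). Under the normexp correction the change with Dox was -0.0062. Which stretch of the transcript this probe reads is unknown, so it may miss the transgene and does not check the Dox labels. All directions are those of the arrays as labelled.

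Genes of the primitive streak and nascent mesoderm rose together. Of 18 members of that list that were tested, 16 rose and 0 fell, beside 9.63% and 9.33% of all probes, and their median log2 change was 2.72 (0.91 with no background correction, which compresses the changes of dim probes). The Mesp1 probe read 2.31 and 2.02 at day 2 and 9.40 and 9.27 at day 4, a log2 rise of 7.17 ± 0.14 (limma adjusted p = 6.39e-06) or 144-fold. The day-2 values of Mesp1 were low, and no day-2 value came near a day-4 value. T itself, Brachyury, read 3.41 and 3.57 at day 2 and 10.17 and 10.15 at day 4, a log2 rise of 6.67 ± 0.11 (adjusted p = 4.04e-06) or 102-fold. Mixl1, a homeobox factor of the streak that directs mesendoderm, read 2.79 and 2.92 and then 8.46 and 8.50, a rise of 5.63 ± 0.20. Both T and Mixl1 thus stood far above their day-2 arrays on each day-4 array.

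Other rising members of the list included signalling genes and regionalised factors of the streak. Apln, the ligand of the apelin receptor, rose by 5.19 ± 0.23, and its receptor gene Aplnr, counted in the cardiac and lateral plate list, rose by 3.05 ± 0.11 from 3.95 and 4.0 to 6.98 and 7.06. Pdgfra, a growth factor receptor of early mesoderm, was above background on 1 of 2 day-2 arrays (1.04 and 1.25) and read 6.06 and 5.99 at day 4, a rise of 4.88 ± 0.12. Factors of the anterior streak rose as well, namely Eomes (2.88 ± 0.11), Gsc (2.91 ± 0.14) and Foxa2 (2.56 ± 0.23). Wnt3, the Wnt ligand needed to form the streak, rose by 1.89 ± 0.14. The 2 members that did not pass were Cer1, with 0.43 ± 0.28 (adjusted p = 0.377), and Mesp2, with 0.18 ± 0.12 (adjusted p = 0.414). Without Dox, 0 of the 18 rose and 7 fell, where 20.2% of all probes rose and 17.9% fell. For 15 of the 18 the course with Dox was higher than the course without Dox in the test of the difference, and for 0 it was lower, beside 11.1% and 11% of all probes.

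The promoter of Mesp1 is shown because this gene rose most of all named genes and because its window held both motifs searched. The T-box motif AGGTGTGA (or its reverse complement TCACACCT) and the CArG box (CC, 6 bases of A or T, then GG, the element bound by serum response factor) were searched on both strands in the window from 250 bases before to 50 bases after the start of each gene in RefSeq (GRCm38.p6). The sequence runs 5′ to 3′ on the minus strand of chr7:79793571-79793740, from 150 bases before the start to 20 bases after it, with the matches in capitals.
Mesp1: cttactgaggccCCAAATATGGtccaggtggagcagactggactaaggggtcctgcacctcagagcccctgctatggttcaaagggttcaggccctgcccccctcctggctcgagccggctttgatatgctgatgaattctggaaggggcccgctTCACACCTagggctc
The CArG match began 138 bases before the start, and the T-box match lay just past the start. The T-box motif was found in 1 of the 13 risen streak genes with a promoter in the table (7.69%), beside 1.32% of the 12344 genes with a tested probe and a promoter. Among genes that rose at least 2-fold it was found in 1.75%, and among those that fell at least 2-fold in 1.45%. A match describes the letters of the window and is not a measured binding site.

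Smooth muscle and actin cytoskeleton genes also rose. Of 18 tested, 15 rose and 0 fell, beside 9.63% and 9.33% of all probes, and the median log2 change was 1.06. Tagln, the actin-binding protein transgelin of smooth muscle, read 3.62 and 2.91 at day 2 and 8.79 and 8.68 at day 4, a log2 rise of 5.47 ± 0.26 (limma adjusted p = 5.09e-05) or 44.3-fold. Acta2, smooth muscle actin, read 2.68 and 2.45 and then 7.05 and 7.05, a rise of 4.48 ± 0.16. Acta1, skeletal muscle actin, read 2.67 and 2.81 and then 7.72 and 7.70, a rise of 4.97 ± 0.17. All 3 read below 4 on each day-2 array and above 7 on each day-4 array. Actin genes are close in sequence, and whether their probes share signal was not tested. Cnn1, the calponin of contractile smooth muscle, rose by 3.02 ± 0.19, and Tpm1, an actin-winding tropomyosin, rose by 1.98 ± 0.10 from 9.04 and 9.02 to 11.05 and 10.97. The members that did not pass were Myh11, the smooth muscle myosin, with 0.00 ± 0.18, Des (desmin), with 0.05 ± 0.11, and Lmod1, with 0.11. Without Dox, 8 of the 18 rose and 6 fell, beside 20.2% and 17.9% of all probes. Tagln fell there by 1.08, Cnn1 fell by 3.01, and Acta2 rose by 1.45, less than with Dox (difference 3.04, adjusted p = 0.000201). The difference between the courses was called higher with Dox for 9 of the 18 and lower for 0, beside 11.1% and 11% of all probes.

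Serum response factor and its CArG box are known for the control of smooth muscle genes, and the promoters of the 2 risen members that held the box are shown with the match in capitals. Acta1 is on the minus strand at chr8:123894776-123895025 and Cnn2, a calponin of non-muscle cells, on the plus strand at chr10:79988350-79988599 (RefSeq, GRCm38.p6), each as the 250 bases before the start.
Acta1: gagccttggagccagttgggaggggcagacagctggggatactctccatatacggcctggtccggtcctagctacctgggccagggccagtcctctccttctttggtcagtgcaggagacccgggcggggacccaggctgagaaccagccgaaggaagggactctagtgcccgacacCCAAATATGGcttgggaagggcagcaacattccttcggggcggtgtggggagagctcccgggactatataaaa
Cnn2: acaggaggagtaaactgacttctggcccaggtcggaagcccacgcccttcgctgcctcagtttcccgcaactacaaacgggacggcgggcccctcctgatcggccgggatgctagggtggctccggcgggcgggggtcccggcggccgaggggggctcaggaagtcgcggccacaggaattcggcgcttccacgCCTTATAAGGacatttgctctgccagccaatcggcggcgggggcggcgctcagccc
The match began 73 bases before the start in Acta1 and 56 bases before it in Cnn2. The box was thus found in 2 of the 13 risen members with a promoter in the table (15.4%), beside 1.64% of the genes with a tested probe, 2.49% of those that rose at least 2-fold and 2.69% of those that fell at least 2-fold. Cnn2, named here for its promoter after its value was seen, rose by 1.26.

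Genes of naive pluripotency fell, and those of the core network did so in part. Of 18 naive genes tested, 0 rose and 13 fell, beside 9.63% and 9.33% of all probes. Their median log2 change was -1.05 (-0.59 with no background correction). Zfp42 (Rex1), a marker of naive embryonic stem cells, read 12.01 and 11.94 at day 2 and 8.96 and 8.91 at day 4, a fall by 3.04 ± 0.11 on the log2 scale (limma adjusted p = 2.37e-05). Nr0b1 (Dax1) fell by 3.17 ± 0.09, Dppa2 fell by 3.16 ± 0.10, Dppa3 (Stella) fell by 3.0 ± 0.16 and Fgf4 fell by 2.94 ± 0.15. Esrrb, with -0.37 ± 0.18, and Klf4, with -0.48 ± 0.14 (adjusted p = 0.053), were among the 5 that did not pass. Without Dox, Zfp42 read 9.41 and 9.51 at day 2 and 3.43 and 3.21 at day 4, and Nr0b1 was above background on none of the 2 day-4 arrays. In all, 12 of the 18 fell without Dox, beside 17.9% of all probes. The difference between the courses was higher with Dox for 7 and lower for 2, beside 11.1% and 11% of all probes.

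Nanog, a core factor of pluripotency, read 10.76 and 10.95 at day 2 and 11.01 and 10.77 at day 4 with Dox. The days overlapped, with a change of 0.04 ± 0.18 (limma adjusted p = 0.929), whereas without Dox Nanog fell by 5.2 ± 0.18, and the difference was 5.24 (adjusted p = 3.39e-05). Among the 8 core genes tested, 2 rose and 2 fell with Dox, beside 9.63% and 9.33% of all probes. The falls were those of Utf1, a chromatin factor of embryonic stem cells, by 2.24 ± 0.10, and of Rif1, a telomere and replication factor, by 0.88 ± 0.13. The rises were those of Tdgf1 (Cripto), the Nodal co-receptor, by 1.06 ± 0.18, and of Lin28a, a repressor of let-7 maturation, by 0.42 ± 0.11. The adjusted p of Tdgf1 was 0.0582 without replicate 2 of day 4 with Dox. That of Lin28a lay between 0.0575 and 0.163 when any array other than replicate 1 of day 4 with Dox was left out. Between 0 and 2 core rises were thus called when 1 array with Dox was left out. Pou5f1 and Sox2 have no named probe here.

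Primed epiblast genes went both ways, with 5 of 10 rising and 2 falling, beside 9.63% and 9.33% of all probes. Those that rose were Cdh2 (N-cadherin) by 1.78 ± 0.10, Fgf5, the classical marker of the epiblast, by 1.63 ± 0.11 (from 6.15 and 6.28 to 7.94 and 7.76), the kinase Pim2 by 1.6 ± 0.12, the Wnt effector Lef1 by 1.23 ± 0.16 and the zinc finger factor Zic2 by 1.17. Those that fell were the DNA methyltransferase Dnmt3a, by 2.06 ± 0.13, and the secreted ligand Fgf15, by 1.0. Zic2 and Fgf15 are named to complete these counts, after their values were seen. Of 11 genes of DNA methylation, 0 rose and 6 fell, with a median of -0.75 (-0.34 with no background correction). Dnmt3l, the cofactor of the de novo methyltransferases, fell by 2.90 ± 0.11, Tet1, which oxidises methylcytosine, fell by 1.29 ± 0.10, and Tet2 fell by 1.54 ± 0.20. Dnmt3b, with -0.14 ± 0.09 (adjusted p = 0.374), stayed at 12.53 and 12.50 after 12.66 and 12.64.

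Of 19 germ cell and meiosis genes 13 fell and 0 rose, beside 9.33% and 9.63% of all probes, with a median of -1.39. The median was -0.27 with no background correction, and 8 falls were called among the fewer members that were above background on all 8 arrays. Hormad1, a component of the meiotic chromosome axis, fell by 3.58 ± 0.25, Dppa3 fell by 3.0 ± 0.16, Tfap2c, a factor of primordial germ cells and trophoblast, fell by 2.53 ± 0.17, and Nanos3, an RNA-binding protein that protects early germ cells, fell by 2.40 ± 0.18. Nanos3 read 8.65 and 8.62 at day 2 and 6.44 and 6.04 at day 4 with Dox, and 5.56, 5.96, 5.80 and 5.60 on the 4 arrays without Dox. Its day-2 arrays with Dox were thus the high ones among all 8. Tfap2c read 9.25 and 9.23 at day 2 and 6.80 and 6.62 at day 4 with Dox, and 4.01 and 4.48 and then 3.36 and 3.29 without. Unlike Nanos3, it fell without Dox too, by 0.92, and its day-4 arrays with Dox stayed above all arrays without Dox. Zscan4c, of a cluster of near-identical genes active in a rare state of embryonic stem cells, fell by 4.36 ± 0.12, and which copies its probe reads is uncertain. Without Dox, Hormad1 fell by 5.24 and Zscan4c by 5.50. Of the 19 list members, 14 fell and 0 rose without Dox, beside 17.9% and 20.2% of all probes, with a median of -2.24. The difference was higher with Dox for 11 and lower for 3, beside 11.1% and 11% of all probes.

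**Figure D2:**
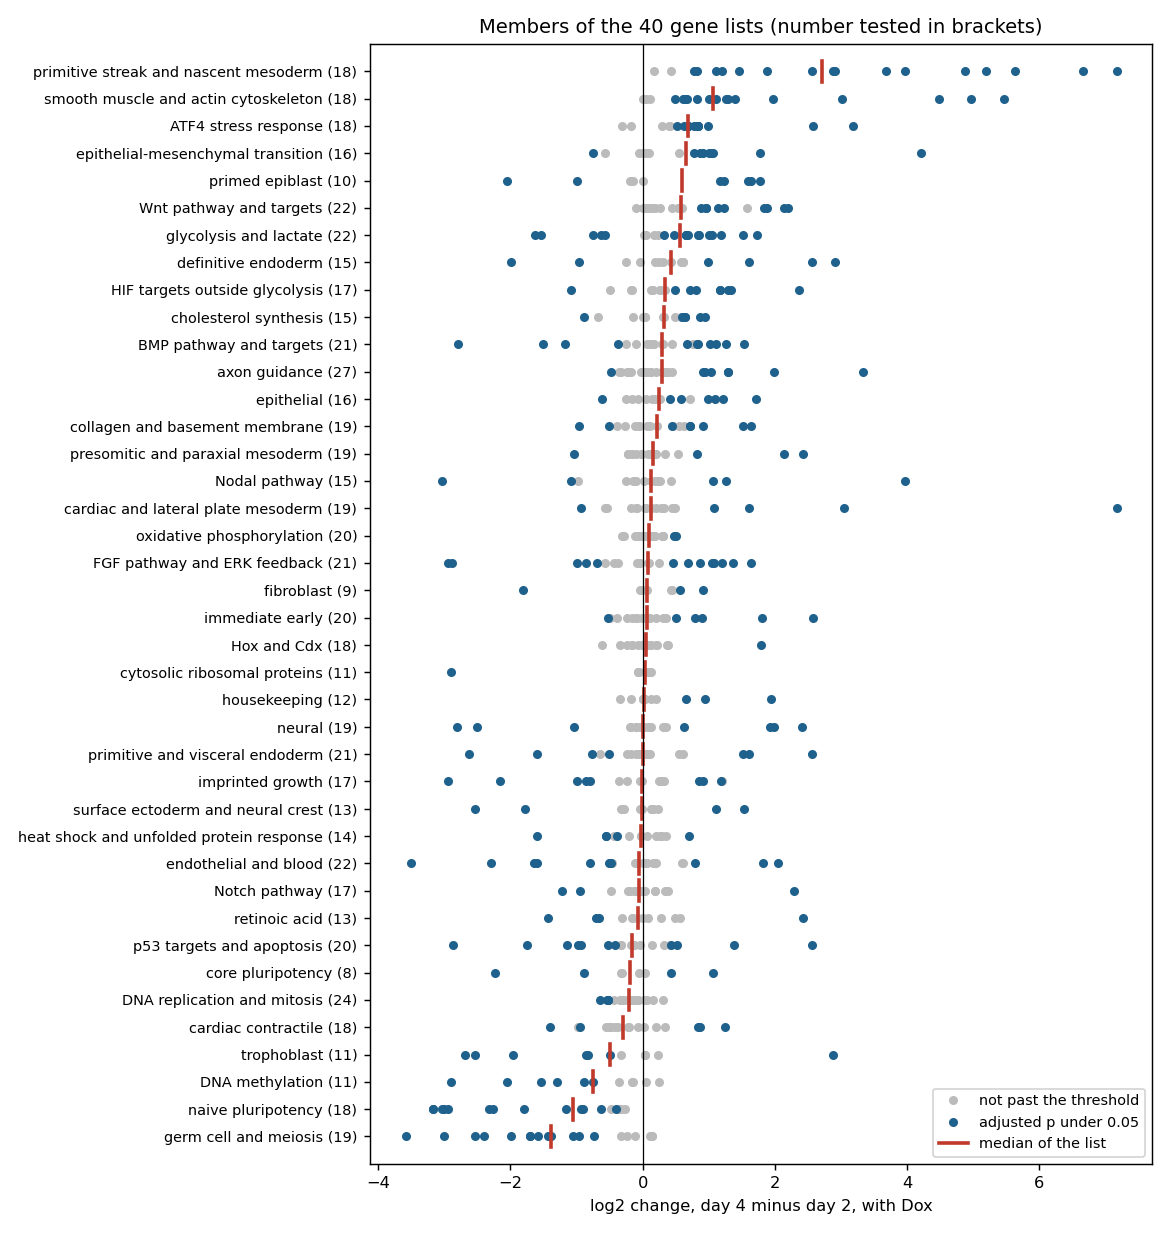
Log2 change from day 2 to day 4 with Dox for each tested member of the 40 gene lists, ordered by the median of the list (red bar), with members at an adjusted p under 0.05 in blue and the others in grey. Primitive streak genes lie farthest to the right with a median of 2.72, and germ cell and naive pluripotency genes farthest to the left with medians of -1.39 and -1.05.

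Of 16 epithelial genes tested, 6 rose and 1 fell with Dox, beside 9.63% and 9.33% of all probes, and the median log2 change was 0.25. The rises were led by tight junction and polarity genes, with the claudin Cldn7 rising by 1.71 ± 0.11 from 6.89 and 6.86 to 8.58 and 8.6, Crb3 by 1.21 ± 0.12 and Cldn6 by 0.99 ± 0.11. Between 3 and 4 rises were called when 1 array with Dox was left out. Cdh1 (E-cadherin) read 10.11 and 10.06 at day 2 and 10.07 and 10.21 at day 4, a change of 0.05 ± 0.13 (adjusted p = 0.835), and Epcam changed by 0.25 ± 0.10 (adjusted p = 0.152). Both adhesion molecules stood at about the same high level on all 4 arrays with Dox. Without Dox, Cdh1 read 10.80 and 10.54 and then 4.79 and 4.60, a fall by 5.98 ± 0.13. There 0 of the 16 rose and 13 fell, beside 20.2% and 17.9% of all probes, with a median of -2.55. The difference was higher with Dox for 11 and lower for 0, beside 11.1% and 11% of all probes.

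Genes of the epithelial-mesenchymal transition rose at the same time, 8 of 16 with a median of 0.66 (0.17 with no background correction), while 1 fell. Over all probes 9.63% rose and 9.33% fell. Cdh11, a mesenchymal cadherin, read 1.5 and 1.48 at day 2 and 5.83 and 5.56 at day 4, a rise of 4.21 ± 0.28 (limma adjusted p = 0.000158). Cdh2 (6.67 and 6.76, then 8.51 and 8.47), the matrix protease Mmp2 (1.06 ± 0.12), the growth factor Tgfb1 (1.03 ± 0.13) and the intermediate filament Vim (1.01 ± 0.13) rose as well. The member that fell was the repressor Zeb1, by 0.75 ± 0.16, named after its value was seen, and 0 falls were called when any 1 array with Dox was left out. Twist1, a driver of the transition, changed by 0.03. The list had 5 to 6 rises called when 1 array with Dox was left out. Cdh11 and Cdh2 rose without Dox too, by 4.78 and 4.41, and the rise of Cdh2 was smaller with Dox (difference -2.63, adjusted p = 6.26e-05).

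**Figure D3:**
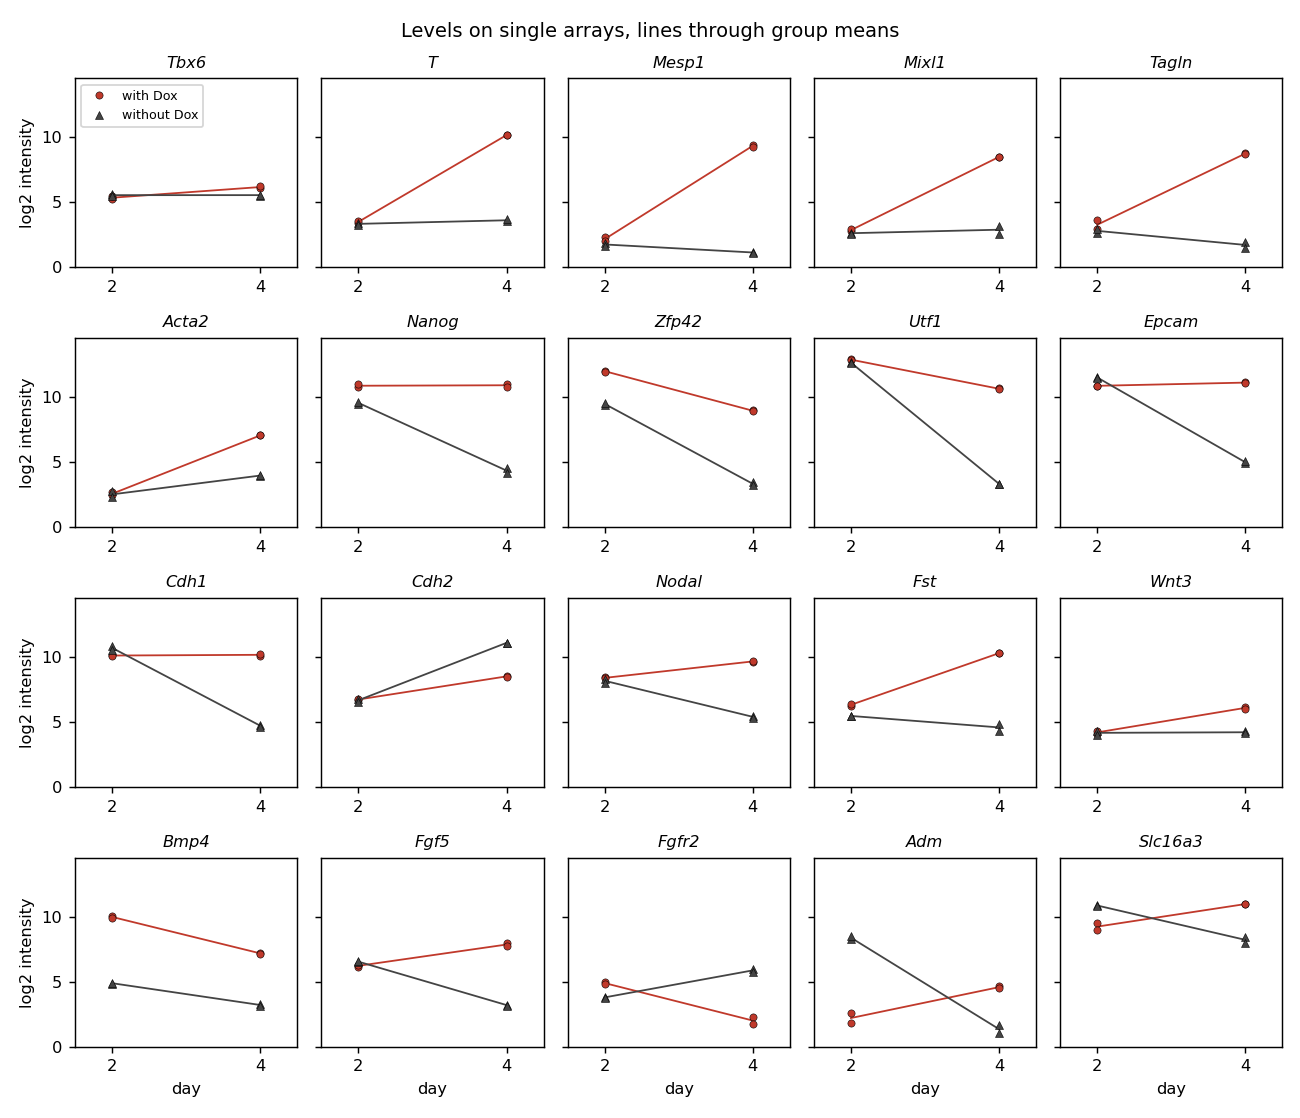
Log2 intensity of 20 genes on single arrays at day 2 and day 4 with Dox (red circles) and without Dox (dark triangles), with lines through the means of the 2 arrays of a group. Streak genes such as T part from the course without Dox at day 4 (10.17 and 10.15 against 3.54 and 3.68), while Nanog, Epcam and Cdh1 stay level with Dox and drop without it.

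In the Nodal pathway, 3 of 15 genes rose and 2 fell, beside 9.63% and 9.33% of all probes, with a median of 0.13. Nodal itself, the ligand that induces the streak, read 8.41 and 8.33 at day 2 and 9.59 and 9.68 at day 4, a rise of 1.26 ± 0.13 (limma adjusted p = 0.00102). Fst (follistatin), an activin antagonist, rose by 3.97 ± 0.17 from 6.22 and 6.39 to 10.30 and 10.25, and Tdgf1 was the third. The falls were those of Lefty1, the feedback inhibitor of Nodal, by 1.09 ± 0.14, and of the ligand Gdf3, by 3.04 ± 0.14. Without Dox, Nodal fell by 2.77, Lefty1 fell by 5.23 and Gdf3 fell by 7.27.

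Wnt pathway genes rose in 9 of 22 cases and fell in 0, beside 9.63% and 9.33% of all probes. Their median was 0.57 (0.17 with no background correction). The ligands Wnt8a (2.20 ± 0.15), Wnt3 (1.89 ± 0.14) and Wnt5a (1.84 ± 0.28), the secreted enhancer Rspo3 (2.14 ± 0.14) and the effector Lef1 rose. Wnt8a read 4.40 and 4.43 at day 2 and 6.46 and 6.76 at day 4 with Dox, and without Dox it was above background on none of the 2 day-4 arrays. Axin2, the standard target of the pathway, changed by 0.11. Frzb, a secreted Wnt antagonist outside the list, was among the 15 largest rises with 3.89 ± 0.29, and it rose without Dox as well, by 5.19. Of the 22 list members, 11 rose and 2 fell without Dox, beside 20.2% and 17.9% of all probes, with a median of 0.51. Wnt5a rose there by 2.58 and Rspo3 by 0.61, while Wnt3 (0.05) and Lef1 (0.03) did not pass. The difference was higher with Dox for 5 and lower for 3, beside 11.1% and 11% of all probes.

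Of 21 FGF pathway genes, 8 rose and 5 fell, and 5 rises were called when any 1 array with Dox was left out. Over all probes 9.63% rose and 9.33% fell. The ligands Fgf5 (1.63 ± 0.11), Fgf3 (1.37 ± 0.17) and Fgf8 (1.20 ± 0.15), the last of which is made in the streak, rose. Fgf4, the ligand of embryonic stem cells, fell by 2.94 ± 0.15. The receptor gene Fgfr2 read 4.94 and 4.84 at day 2 and 2.26 and 1.76 at day 4, a fall by 2.88 ± 0.18. Without Dox Fgfr2 went the other way, from 3.86 and 3.72 to 5.98 and 5.76, and the difference was -4.96 (adjusted p = 4.31e-05).

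The BMP list had 7 of 21 genes rising and 4 falling, beside 9.63% and 9.33% of all probes, with a median of 0.30. Bmp4, the ligand that acts on the streak from the extraembryonic side in the embryo, read 10.03 and 9.91 at day 2 and 7.19 and 7.15 at day 4, a fall by 2.80 ± 0.10 (limma adjusted p = 2.32e-05). It nevertheless stayed above the arrays without Dox, which read 4.83 and 4.93 at day 2 and 3.25 and 3.16 at day 4. The targets Msx2 (1.53 ± 0.20) and Msx1 (1.12) and the signal transducer Smad1 (1.27 ± 0.10) rose. Id4 fell by 1.51 ± 0.22, Smad7, an inhibitor of the pathway, fell by 1.18 ± 0.16. Id1, a direct BMP target, changed by -0.26 ± 0.16 (adjusted p = 0.347). Msx1, Msx2 and Smad1 rose without Dox too, by 2.77, 1.38 and 0.99. The rise of Msx1 was smaller with Dox (difference -1.65, limma adjusted p = 0.00218). Without Dox 13 of the 21 rose and 4 fell, beside 20.2% and 17.9% of all probes, with a median of 0.91. The difference was higher with Dox for 3 and lower for 8, beside 11.1% and 11% of all probes.

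The Notch counts and the 1 retinoic acid rise lay near the shares over all probes, of which 9.63% rose and 9.33% fell. In the Notch list 1 of 17 rose, Hes1, a repressor shared by several pathways, from 5.63 and 5.31 to 7.90 and 7.63 (2.30 ± 0.16), and 2 fell, Rbpj by 1.22 ± 0.10 and Rfng by 0.95 ± 0.12. Between 1 and 2 rises were called in each of the Notch and retinoic acid lists when 1 array with Dox was left out. In the retinoic acid list 1 of 13 rose, Cyp26a1, the enzyme that degrades retinoic acid and is made in the streak, from 5.62 and 5.59 to 8.07 and 8.0 (2.43 ± 0.21). The list had 3 falls, those of Stra8, a meiosis gene that retinoic acid induces, by 1.43, of the receptor Rarg by 0.70 and of the binding protein Crabp1 by 0.66, and 1 to 3 falls were called when 1 array with Dox was left out.

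Of 19 cardiac and lateral plate genes, 4 rose and 1 fell, beside 9.63% and 9.33% of all probes, and the median was 0.13. Besides Mesp1 and Aplnr, Gata6, a factor of endoderm and heart, rose by 1.60 ± 0.21, and Fgf10 rose by 1.09 ± 0.22, with an adjusted p of 0.0618 to 0.0956 without 1 array with Dox. Tbx3 fell by 0.93 ± 0.19, with an adjusted p of 0.0532 to 0.11 without replicate 1 or 2 of day 2 or replicate 1 of day 4. Later genes of the heart field did not pass, with 0.13 for Hand2, -0.09 for Tbx5, -0.54 for Isl1 and -0.18 for Gata4. In the contractile list 3 of 18 rose and 2 fell, beside 9.63% and 9.33% of all probes. Its median was -0.29 (1 to 3 falls when 1 array with Dox was left out). The myosin light chain genes Myl3 and Myl7 went apart, with a rise of 0.87 ± 0.14 and a fall by 0.95 ± 0.09, and Tnnt2, the cardiac troponin, changed by -0.38. Nkx2-5 and Actc1 have no named probe here.

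Among 19 presomitic and paraxial genes, 3 rose and 1 fell, beside 9.63% and 9.33% of all probes. The rises were Cyp26a1, Rspo3 and Tbx6, and whether the Tbx6 probe reads the transgene is unknown. Without Dox 8 of the 19 rose and 2 fell, beside 20.2% and 17.9% of all probes. With Dox, later members of the segmentation programme did not pass, with 0.18 for Dll1, 0.53 for Pcdh8, -0.02 for Ripply2 and 0.08 for Aldh1a2. Cited1 fell by 1.03 ± 0.19, with an adjusted p between 0.0561 and 0.0666 without replicate 1 of day 2 or without replicate 1 or 2 of day 4. Of 18 Hox and Cdx genes, which lay down the body axis, 1 rose and 0 fell with Dox, beside 9.63% and 9.33% of all probes. That gene was Hoxb1, among the first Hox genes of the streak, from 3.19 and 3.28 to 4.90 and 5.16 (1.79 ± 0.12), and 1 to 2 rises and 0 to 1 falls were called when 1 array with Dox was left out. Cdx2 changed by 0.04 ± 0.10.

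Definitive endoderm genes rose in 4 of 15 cases and fell in 2 (1 to 2 when 1 array with Dox was left out), with a median of 0.43. The rises were Gsc, Foxa2, Gata6 and Cldn6, all of which also belong to other lists, while Sox17, a defining factor of endoderm, changed by -0.03. Among 21 genes of primitive and visceral endoderm 3 rose and 4 fell, beside 9.63% and 9.33% of all probes. The serum protein genes Ttr and Apoa1 were above background on none of the 4 arrays with Dox. The iron carrier gene Trf fell by 2.62 ± 0.21 and Amn, a receptor component of visceral endoderm, fell by 1.60 ± 0.12. Trophoblast genes fell in 6 of 11 cases, with Rhox6 at 10.06 and 10.06 and then 7.18 and 7.56, a fall by 2.69 ± 0.25, Tfap2c as above, and Elf5 falling by 1.95 ± 0.17. Rhox6 was low on every array without Dox, at 3.63 and 3.11 and then 2.10 and 1.56. The 1 trophoblast gene that rose was Eomes, which is shared with the streak.

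Endothelial and blood genes fell in 8 of 22 cases (5 with no background correction) and rose in 3, and 4 to 7 falls and 1 to 2 rises were called when 1 array with Dox was left out. Pecam1, an adhesion receptor of endothelium that mouse embryonic stem cells also carry, read 6.54 and 6.47 and then 2.85 and 3.16, a fall by 3.50 ± 0.13. Tek, the angiopoietin receptor, fell by 2.29 ± 0.21, and Lmo2, a partner of blood and endothelial factors, rose by 2.05 ± 0.10 from 3.79 and 3.87 to 5.86 and 5.90. Kdr (Flk1), which marks the mesoderm that forms vessels and blood, changed by 0.20 ± 0.14. Of 19 neural genes, 4 rose and 3 fell, beside 9.63% and 9.33% of all probes. Stmn2, a microtubule regulator of neurons, rose by 2.40 ± 0.11, Fabp7 rose by 1.99 ± 0.11 and Nes by 1.92 ± 0.11, while Pax6 fell by 2.81 ± 0.16 from 4.15 and 3.85 to 1.30 and 1.07. Without Dox 10 of the 19 neural genes rose, beside 20.2% of all probes, and Fabp7 reached 11.89 and 12.02 there against 6.57 and 6.78 with Dox.

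Summed over the fixed markers of other cell types, the linear intensity with Dox was 134 to 135 at day 2 and 39.4 to 43.2 at day 4 for 4 of 5 endothelial and blood markers with a tested probe, 139 to 141 and then 73.5 to 79.7 for 4 cardiomyocyte markers, of which Myl7 was the brightest (mean log2 6.87 and 5.92) and Tnnt2 and Nppa did not pass, and 56.9 to 68.7 and then 29.6 to 30.5 for 6 of 7 endoderm markers. Pecam1 was the brightest endothelial and blood marker at day 2 (mean log2 6.51 and then 3.0). Amn was the brightest endoderm marker (mean log2 5.55 and then 3.96) and the 1 that passed, and Ttr and Apoa1 were at the floor on every array with Dox. The sum of 5 feeder fibroblast markers was 80.2 to 91.3 and then 87.9 to 104.4, with Postn at the floor at day 2. Dcn, with a log2 change of -1.805, was the 1 of them that passed. The sum of 3 of 4 neural markers was 130 to 134 and then 140 to 157, against 3942 to 4320 at day 4 without Dox. With Dox, Fabp7 rose, and Pax6 and Tubb3 fell. The 6 streak markers went from between 174 and 185 to between 3663 and 3764, and all 6 rose. The sum of 4 of 6 trophoblast markers went up from between 148 and 154 to between 332 and 344, and Eomes, which is also a streak marker, was the 1 that rose. The 5 of 7 pluripotency markers with a tested probe were above background on every array, and their sum was 11411 to 12378 and then 8412 to 8590. Utf1, the brightest of them at day 2 (mean log2 12.86 and then 10.62), was the 1 that fell. Tdgf1 and Lin28a rose, and Nanog and Sall4 did not pass. The part of these shifts in the other results was not tested.

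Genes of glycolysis and of the ATF4 response mostly rose with Dox, and of the hypoxia response 8 of 17 did. Genes of all these lists mostly fell without Dox, with exceptions. Of 22 genes of glycolysis and lactate, 13 rose and 5 fell with Dox, beside 9.63% and 9.33% of all probes, with a median of 0.56. Slc16a3, the lactate exporter, read 9.48 and 8.97 at day 2 and 10.96 and 10.95 at day 4, a rise of 1.73 ± 0.20 (limma adjusted p = 0.00159), and the enzymes Eno3 (1.53 ± 0.09) and Tpi1 (1.18 ± 0.09) rose. Pdk1 fell by 1.62 ± 0.10 and Pfkp fell by 1.54 ± 0.10, and 2 to 3 falls were called when 1 array with Dox was left out. Without Dox 1 of the 22 rose, namely Eno3 by 1.15, and 15 fell, beside 20.2% and 17.9% of all probes. Among these falls were those of Pdk1 by 3.27 and Pfkp by 5.18. The difference was higher with Dox for 16 and lower for 0, beside 11.1% and 11% of all probes. The level of Slc16a3 without Dox was 10.86 and 10.84 at day 2, above the day-2 arrays with Dox, so its 2 courses crossed.

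Targets of the hypoxia-inducible factor outside glycolysis had 8 of 17 rising and 1 falling, with 5 to 6 rises when 1 array with Dox was left out. Adm (adrenomedullin), a vasodilator peptide, rose by 2.37 ± 0.29 from 2.57 and 1.85 to 4.66 and 4.5, Ddit4 by 1.33 ± 0.19, the oxygen sensor Egln1 by 1.17 ± 0.13 and Vegfa, the vascular growth factor, by 1.17 ± 0.16. The histone demethylase Kdm3a fell by 1.08. Without Dox Adm read 8.24 and 8.51 and then 1.66 and 1.04. There 13 of the 17 fell and 1 rose, beside 17.9% and 20.2% of all probes. Targets of ATF4, the factor of amino acid and stress responses, rose with Dox in 13 of 18 cases and fell in 0, with a median of 0.69. Over all probes 9.63% rose and 9.33% fell with Dox. Vldlr, a lipoprotein receptor, rose by 3.18 ± 0.18 from 4.83 and 5.01 to 7.98 and 8.23, Atf3 by 2.57 ± 0.19, Ddit3 (CHOP) by 0.99 ± 0.13, Chac1 by 0.84 ± 0.12 and the serine synthesis enzyme Psph by 0.84 ± 0.10. Without Dox 16 of the 18 fell and 0 rose, beside 17.9% and 20.2% of all probes. The difference was higher with Dox for 17 and lower for 0, beside 11.1% and 11% of all probes.

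The remaining lists moved little or both ways. Each count with Dox stands beside the 9.63% of all probes that rose and the 9.33% that fell. Genes of DNA replication and mitosis had a median of -0.21, with 0 of 24 rising and 5 falling, namely Aurka, Cdc20, Top2a, Ccne1 and Ccnb2 by 0.52 to 0.65 (3 to 5 falls when 1 array with Dox was left out). In oxidative phosphorylation 2 of 20 rose, Cycs by 0.51 and Atp5o by 0.48, and 0 fell, beside 9.63% and 9.33% of all probes. Between 0 and 1 rise was called there when 1 array with Dox was left out. Of 20 p53 targets, 4 rose and 7 fell (2 to 4 rises and 4 falls when 1 array was left out), with the caspase gene Casp8 rising by 2.55 ± 0.17, the BH3 gene Pmaip1 (Noxa) rising by 1.38 ± 0.10, and Gadd45g and Gadd45a falling by 2.86 ± 0.12 and 1.75 ± 0.09. Of 17 imprinted growth genes, 3 rose and 5 fell, among them H19, a noncoding RNA, which fell by 2.94 ± 0.14, and the growth inhibitor Cdkn1c, which fell by 2.15 ± 0.16. Of 19 collagen and basement membrane genes 6 rose and 2 fell (1 fall when any 1 array with Dox was left out), with Col5a1 rising by 1.63 ± 0.09 and Col4a2 by 1.52 ± 0.12. Col5a1 and Col4a2 rose without Dox too, by 1.77 and 2.14. Of these 19 genes, 6 rose and 5 fell without Dox, beside 20.2% and 17.9% of all probes. Among 12 housekeeping genes 3 rose with Dox, B2m by 1.94 ± 0.13, Pgk1 by 0.66 ± 0.10 and Actb by 0.95 ± 0.16. A second, dimmer Actb probe changed by -0.03 and Gapdh by 0.03. Of 11 ribosomal protein genes 1 was called, Rpl10, which fell by 2.90 ± 0.11, and whether its probe also reads pseudogene copies was not tested.

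The course with Dox was then set beside the course without Dox, which shares no array with it. Without Dox, 8266 probes were called (38.1%), 4385 higher and 3881 lower. The log2 changes of the 2 courses correlated at r = 0.415 across the 21670 probes, which is a description since probes are not independent replicates. Their median size was 0.22 with Dox and 0.34 without. Of the probes that rose with Dox, 1103 also rose without Dox (52.9% of the rises with Dox and 25.2% of those without), 385 fell and 599 were not called. Of the probes that fell with Dox, 1282 also fell without Dox (63.4% of the falls with Dox and 33% of those without), 174 rose and 566 were not called. The test of the difference called 4796 probes (22.1%), 2414 higher with Dox and 2382 lower. It called all 559 probes that went in opposite directions. Called changes of opposite sign add up in the difference, so this count is no separate support. Changes of at least 2-fold without Dox were called for 7.15% of probes upwards and 8.04% downwards, and of at least 4-fold for 1.84% and 2.97%.

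**Figure D4:**
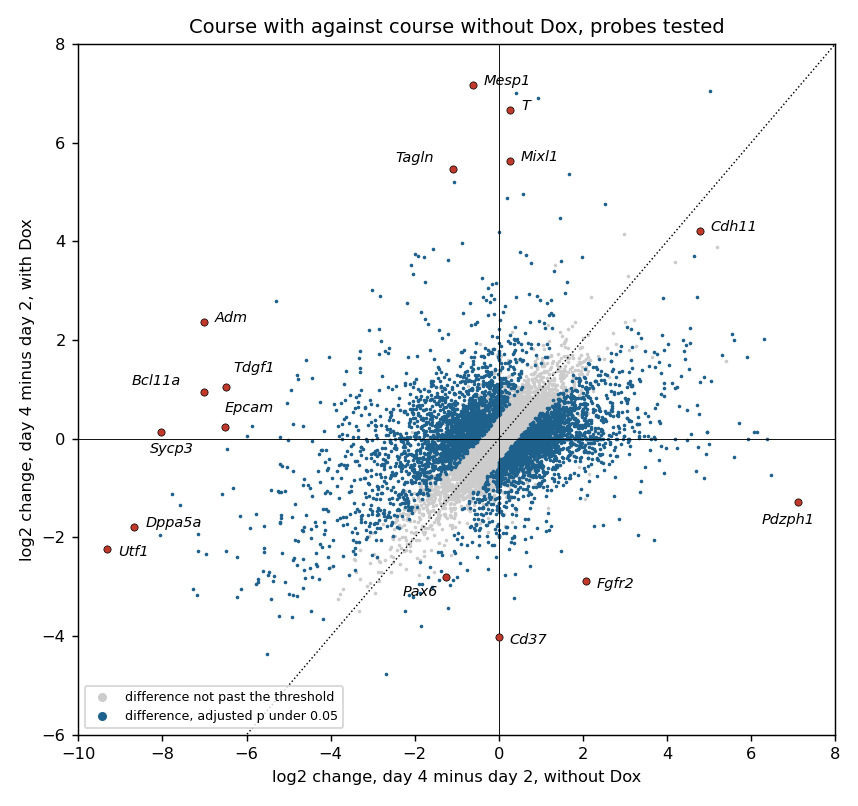
Log2 change from day 2 to day 4 with Dox against the change without Dox for all tested probes, with those whose difference had an adjusted p under 0.05 in blue and 16 named genes in red. Mesp1, which was not above background at day 4 without Dox, T and Mixl1 lie between -0.62 and 0.28 without Dox and between 5.63 and 7.17 with Dox, while Cdh11 rose in both, by 4.21 with Dox and 4.78 without.

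Several genes changed at least 4-fold with Dox while their course without Dox lay near 0. The 6 rises nearest to that were Ccl20, Cpxm2, Stmn2, Gap43, Atf3 and Tmem130. Ccl20, a chemokine, was above background on no array but the 2 day-4 arrays with Dox, where it read 5.38 and 5.09, at least 18.3-fold higher than at day 2 (limma adjusted p = 1.62e-05). Gap43, a growth cone protein of neurons, read 5.34 and 5.26 and then 8.42 and 8.49 with Dox, a rise of 3.16 ± 0.10, and stayed between 6.31 and 6.50 without Dox. The 6 falls were Cd37, Nanos3, Phf19, Plcd1, Klhl13 and Gstm3. Cd37, a tetraspanin of white blood cells, read 5.04 and 5.09 on the day-2 arrays with Dox and was above background on none of the 6 other arrays, at least 16.2-fold lower at day 4 (adjusted p = 8.38e-06). Klhl13, an adaptor of ubiquitin ligases, fell from 9.0 and 8.99 to 7.01 and 6.78 and lay between 6.22 and 6.63 without Dox. In all 6 of these falls, as for Bmp4 and Rhox6, both day-2 arrays with Dox lay above every other array of the series.

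**Figure D5:**
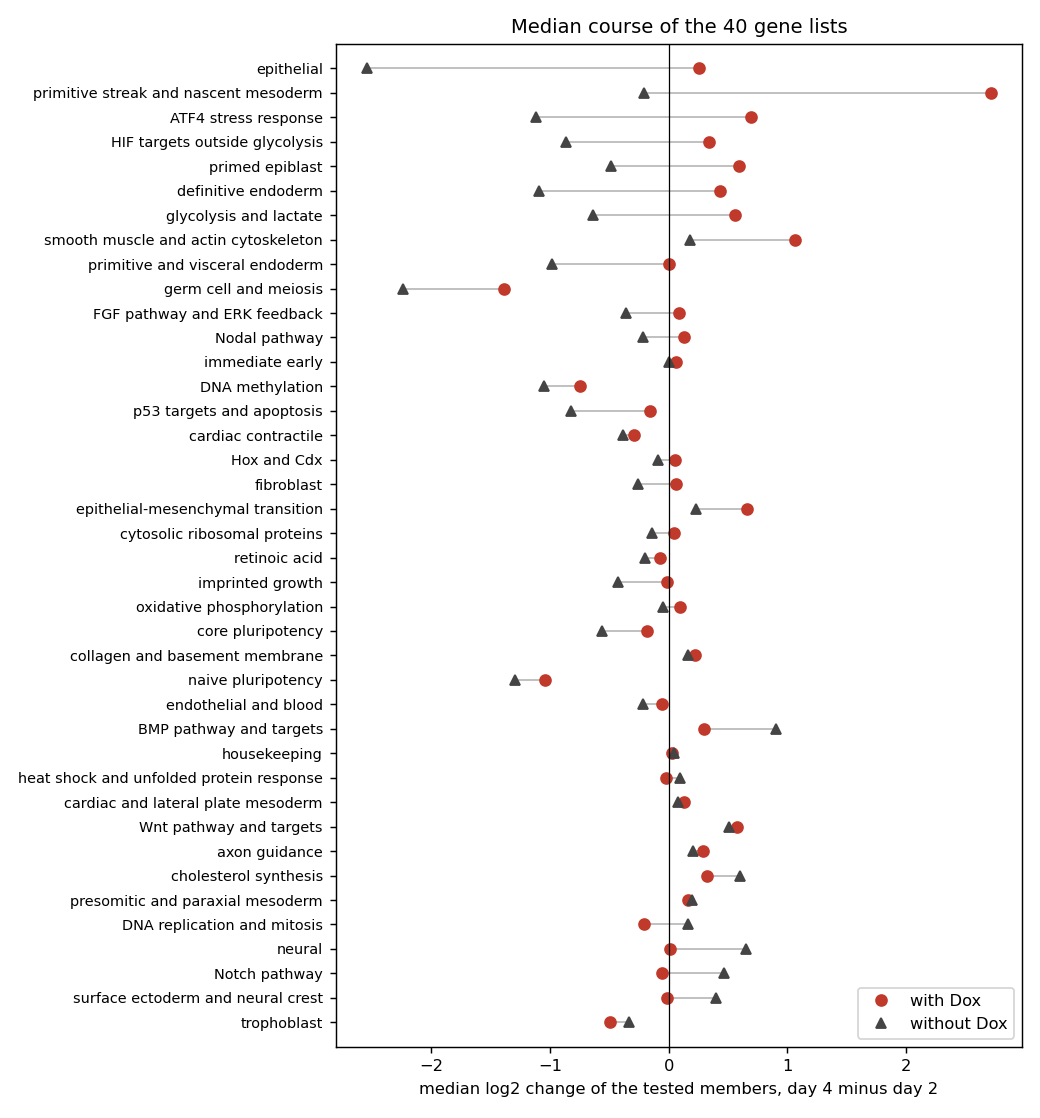
Median log2 change from day 2 to day 4 of the tested members of each of the 40 gene lists with Dox (red circles) and without Dox (dark triangles), ordered by the median difference between the courses. Epithelial genes have the largest median difference per gene (3.89; list medians 0.25 with Dox and -2.55 without), followed by streak genes (3.18; list medians 2.72 and -0.21).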

How the data were processed

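Single-colour 3D-Gene arrays (Cy5, read at 635 nm) measured RNA of mouse embryoid bodies, 2 arrays in each of 4 groups. Per the file headers, the deposited intensity values had been put on 1 scale from readings at 3 scanner gains. The authors' processed table holds intensity values with a median of 25 per array that correlate at r = 1 with the scanner values, and it served as an alternative. Per the labels' protocols, RNA was amplified by the amino allyl method before dye coupling.

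From each spot the mean of the blank spots of its array was subtracted, the 23473 gene probes were quantile normalised, values were floored at 2.06 and log2 was taken. Probes above the blanks by 2 SDs on at least 2 arrays were tested with limma 3.58.1 (R 4.3.3), with 1 mean per group over all 8 arrays, 2-sided, with Benjamini-Hochberg adjustment over 21670 probes, and called at an adjusted p under 0.05. Values given with ± are log2 changes with their limma SE. "At least" folds set the bright group against background.

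Of the gene probes, 16631 had 1 gene symbol and 6842 none, and a gene's brightest probe stood for it. Members and lists were chosen with earlier results of these data known. Genes named are Tbx6 and T, the 15 largest rises and falls, up to 5 called members per list with members that did not pass, the 10 largest differences between courses, and the 6 rises and 6 falls nearest 0 without Dox. Both sets of rises and falls were drawn from called genes whose 2 days with Dox did not overlap. Others named to complete a small count or for a promoter were chosen after their values were seen. Replicate numbers were checked for pairing. On simulated data for this comparison (21670 probes), 27 of 50 probes changed by 1 and 47 of 50 changed by 2 on the log2 scale were called, with 9 false calls. Of 50 probes changed by 0.5 only 1 was called, so genes that did not pass may still have changed by about that much, and some by about 1. Each simulated size had 50 changed probes, far fewer than the 4109 called here, so recovery in the real data may differ. Alternatives covered background, scaling, filter, floor, fit and leaving out arrays.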

Additional observations from a re-analysis of the deposited data

Results flagged for a closer look

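The course from day 2 to day 4 differed with and without Dox for 4796 probes by the test of the difference itself (limma, adjusted p under 0.05), and 559 probes were called in opposite directions in the 2 courses.

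The 10 genes with the largest difference were named for it, with values given as the log2 change with Dox minus that without. Adm had the largest, 9.40, with a rise by 2.37 with Dox and a fall by 7.02 without. Sycp3, of the meiotic chromosome axis, had 8.19: it read 8.18 and 8.13 and then 8.21 and 8.39 with Dox, and 9.60 and 9.60 and then 1.04 and 2.07 without. Mesp1 had 7.79, and it is the gene of these 10 with the largest rise with Dox. Pluripotency genes had 7.55 (Tdgf1), 7.08 (Utf1) and 6.87 (Dppa5a), and each fell by more than 6 without Dox. The adhesion gene Epcam had 6.76 and the phospholipase gene Pla2g10 had 6.64. Pla2g10 and Mesp1 were above background on neither day-4 array without Dox, and Adm, Sycp3 and Bcl11a on 1 of 2, so the sizes and order of these differences depend on the floor set for dim probes. Bcl11a, a zinc finger factor of neurons and blood, had 7.96, and its change with Dox of 0.95 lost its call without replicate 1 of either day with Dox (adjusted p = 0.0721 and 0.0713). Pdzph1 was the 1 gene of the 10 that was lower with Dox, with -8.39: it rose by 7.10 without Dox and was above background on neither day-4 array with Dox. Its difference therefore also depends on the floor, and with double the floor its change with Dox went from -1.29 to -0.29 and lost its call (adjusted p = 0.156).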

How the results depend on the processing

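With Dox, the count of probes called was 2420 to 3841 when 1 array was left out, against 4109, with 1171 to 1939 higher and 1224 to 1902 lower; the lowest counts came from leaving out an array with Dox. The difference between the courses gave 3464 to 3924 calls in the same way, and the course without Dox 6486 to 8005. A fit with the replicate number as a block (replicate block) gave 3546 calls with Dox. Deviations of arrays with the same number correlated at 0.227 between the 2 days with Dox and at -0.266 to 0.083 between other groups, so the numbers were not taken to pair arrays. A fit on the 4 arrays with Dox alone gave 2873 calls, and the other settings apart from normexp gave 3718 to 4748. All 186 named genes called kept their direction in each of these settings in which they were measured, and leaving out 1 array with Dox ended the calls of 20 to 23 of them. List medians shrank when no background was subtracted, to 0.91 for streak genes and -0.27 for germ cell genes, and falls called among replication and mitosis genes then numbered 9 in place of 5.

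A normexp correction with the local background values left 3 calls with Dox, 1 higher and 2 lower, and 0 for the course without Dox and for the difference (limma), with 782 probes at an unadjusted p under 0.05 with Dox. Those values correlated with the spot values at 0.984 to 0.998 on the log scale; the cause of the loss of calls was not tested. Among genes named in the text, the log2 change with Dox turned negative under it for Actb (-1.46), Vim (-0.99), Lin28a (-0.47), Atp5o (-0.43), Slc16a3 (-0.33), Ddit4 (-0.30), Epha1 (-0.22), Hes1 (-0.12), Cnn1 (-0.11), Cyp51 (-0.098), Nodal (-0.075), B2m (-0.070), Chac1 (-0.064), Egln1 (-0.028), Tgfb1 (-0.022), Bcl11a (-0.021), Vldlr (-0.021), Msx2 (-0.015), Fgf8 (-0.012), Msx1 (-0.0076), Lef1 (-0.0071), Tbx6 (-0.0062), Hoxb1 (-0.0034), and positive for Tek (0.002), Cd37 (0.0049), Fgf15 (0.018), Phf19 (0.034), Kdm3a (0.046), Rbpj (0.047), Gadd45g (0.061), Zscan4c (0.066), Gstm3 (0.077), Insig1 (0.081), Rhox6 (0.20), Pdk1 (0.20), Tet1 (0.29), Lefty1 (0.36), Gadd45a (0.49), Top2a (1.09). Probes near the blank level carry the least information, and 1803 probes were left out for that reason.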

Other observations

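Of the 10 largest rises with Dox over all probes, 4 came from probes with no gene symbol, with log2 changes of 5.36 to 7.04, and of the 10 largest falls 1 did, with -3.61. In axon guidance, 7 of 27 tested genes rose and 1 fell with Dox (0 falls when any 1 array with Dox was left out), led by the receptor gene Epha1 (3.34) and its ligand family member Efna5 (1.99). In cholesterol synthesis, 5 of 15 rose (9 with no background correction) and 1 fell, with Cyp51 rising by 0.94 and the feedback regulator Insig1 falling by 0.89. Over all probes 9.63% rose and 9.33% fell with Dox.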
